A study of Mus musculus with 32 samples.

Results

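The genes described here are 9 transcription factor genes of the epiblast and of early neural tissue, Zic1, Zic2 and Zic5, Otx1 and Otx2, Pou3f1, Pou3f2 and Pou3f3, and Pax6. The rule takes them by name, though earlier results of these data were known when they were chosen, and they are 9 of the 31053 genes counted. The data are 32 RNA libraries of C1, a line of mouse embryonic stem cells (ESCs), from 8 groups with 4 biological replicates in each. All groups share the same background, a knockout of β-catenin that carries 2 lentiviral transgenes: rtTA under the EF1a promoter, and a dox-inducible fusion protein in which a destabilizing domain (DD) and mCherry precede β-catenin S33Y, a constitutively active form. Doxycycline (dox) starts transcription of the fusion and trimethoprim (TMP) stabilizes its protein. At day 0, in pluripotent culture, C1 had TMP alone, whereas C1M and C1H had dox and TMP and were sorted for middle and high mCherry. From these 3 populations came 5 groups after 4 days in NDiff227, a serum-free medium: C1T from C1 with TMP and never dox, C1MV and C1HV with both inducers withdrawn, and C1MDT and C1HDT with both kept. C1MV and C1HV thus also lacked the TMP that C1T had, and the 2 differences cannot be told apart in comparisons with C1T. The labels describe serum with LIF before differentiation, the paper's methods 2i with LIF, and all groups derive from 1 modified line.

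ZIC proteins are zinc finger factors, OTX proteins are homeodomain factors of the head and forebrain, and POU3F proteins carry a POU domain that binds octamer sequences. As mouse ESCs leave naive pluripotency, Otx2 and Pou3f1 (also called Oct6) are known to rise and to take part in moving Oct4 to the enhancers of the primed epiblast, and Zic2 and Zic5 are known epiblast genes. Pax6, Otx1, Pou3f2 (Brn2), Pou3f3 (Brn1) and Zic1 are best known from neural progenitors and the developing brain.

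Expression is given as CPM, the counts of a gene scaled to the same library total, adjusted by edgeR's TMM factors, with 1 value for each library in the order of its replicate number and with mean ± SD over 4 libraries. The libraries held 1366951 to 3648787 reads on genes. A 3′ end method does not correct for length, so levels were compared between groups for 1 gene and are not meant as a comparison between genes. Differences are log2 fold changes of the first-named group over the second with their standard errors (SE), from edgeR's quasi-likelihood test over 15280 genes, called at an adjusted p under 0.05. The replicates are labelled as biological, while a figure legend of the paper places the 4 samples of a group in the same experiment. The p-values cover the spread between these libraries and may not cover that between independent experiments. Of the 9 genes 4, namely Zic2, Zic5, Otx2 and Pou3f1, were at 1 CPM or more in all 32 libraries. The others passed the filter of 1 CPM in 4 libraries through the groups where they were high, with 29 libraries at that level for Pax6, 18 for Otx1, 15 for Pou3f3, 14 for Zic1 and 10 for Pou3f2. RNA came from bulk samples, sorted cells at day 0 and whole cultures at day 4, in which fewer cells of a type and less RNA per cell cannot be told apart.

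In GRCm38, Zic5 (ENSMUSG00000041703) lies at chr14:122456795-122465677 on the minus strand and Zic2 (ENSMUSG00000061524) at chr14:122475435-122479852 on the plus strand, with 9758 bases between their starts. Otx2 lies on the same chromosome at chr14:48657677-48673819 (minus). It overlaps Gm49154 on its own strand, and Otx2os1 on the other strand, whose mean level was 0.239 to 1.29 CPM in the 8 groups, while the counts on Otx2 itself came to 74.8 to 344 CPM, both without correction for length. Otx1 lies at chr11:21994764-22002897 (minus), Pou3f1 at chr4:124656807-124660655 (plus), Pou3f2 at chr4:22482780-22488366 (minus) and Pou3f3 at chr1:42695768-42703176 (plus). Zic1 lies at chr9:91358058-91365810 (minus) and Pax6 at chr2:105668900-105697364 (plus). Zic1 overlaps Zic4, Pou3f1 overlaps Gm2164, Pou3f3 overlaps AC122898.1 and Pax6 overlaps Pax6os1, and the strand setting of the counting was not given in the sources used here, so reads in the shared bases cannot be assigned with certainty.

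β-catenin acts on genes through TCF/LEF factors, and Otx2 and Pou3f factors have their own short motifs, so promoters of the 9 genes were searched for these letters. RefSeq (GRCm38.p6) gave 10 windows, of 250 bases before to 50 after a start, for 6 of the 9 genes. Searched on both strands were CTTTGAA or CTTTGAT for TCF/LEF, TAATCC for OTX and the octamer ATGCAAAT, none of which contains another. Of 32851 promoter windows 8.65% held the TCF/LEF letters, 7.06% the OTX letters and 1.74% the octamer. A single window of Otx2 held the OTX letters and the window of Pou3f2 held the TCF/LEF letters, both on the strand opposite to the printed one. These 2 windows are shown with that of Zic5, which held none of the motifs and whose gene shares its locus with Zic2. Capitals mark the match, which describes the letters and is not evidence of binding. The Otx2 window is chr14:48665060-48665359, the Pou3f2 window chr4:22488317-22488616 and the Zic5 window chr14:122465609-122465908, each on the minus strand and printed 5′ to 3′ in the direction of transcription.
Otx2: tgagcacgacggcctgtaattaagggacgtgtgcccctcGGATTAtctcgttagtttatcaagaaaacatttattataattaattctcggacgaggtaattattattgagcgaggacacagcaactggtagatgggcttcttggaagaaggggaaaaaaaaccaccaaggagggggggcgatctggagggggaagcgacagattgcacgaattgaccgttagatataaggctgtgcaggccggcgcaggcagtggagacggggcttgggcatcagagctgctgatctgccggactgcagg
Pou3f2: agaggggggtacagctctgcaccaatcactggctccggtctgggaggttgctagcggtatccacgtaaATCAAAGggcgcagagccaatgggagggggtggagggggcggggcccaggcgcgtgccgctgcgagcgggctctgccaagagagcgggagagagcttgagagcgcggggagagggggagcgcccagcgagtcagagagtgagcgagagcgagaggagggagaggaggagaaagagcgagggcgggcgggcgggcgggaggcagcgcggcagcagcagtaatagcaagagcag
Zic5: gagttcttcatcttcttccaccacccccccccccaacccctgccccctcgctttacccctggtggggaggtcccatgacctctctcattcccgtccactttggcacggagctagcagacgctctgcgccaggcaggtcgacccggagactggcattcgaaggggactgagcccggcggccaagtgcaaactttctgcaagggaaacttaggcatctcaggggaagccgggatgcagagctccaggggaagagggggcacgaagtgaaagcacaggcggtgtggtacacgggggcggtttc

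Of the 9 genes 5 rose and 3 fell over the 4 days, and Zic1 had no direction that held across the comparisons. The 3 that fell passed the filter of 1 CPM in 4 libraries mainly or only through day 0 libraries. A fall was thus favoured in advance for them, and their number beside the share of all tested genes is no test. From C1 to C1T, without any induction, 5 were called higher (Zic2, Zic5, Otx2, Pou3f1 and Pax6) and 3 lower (Otx1, Pou3f2 and Pou3f3), beside 49.2% of all tested genes called in that comparison, 24.4% higher and 24.9% lower. The counts were 5 and 3 from C1M to C1MV (45.8% of tested genes called, 22% higher and 23.8% lower), 5 and 3 from C1M to C1MDT (52.4%, 24.5% higher and 27.9% lower), 5 and 4 from C1H to C1HV (47%, 22% higher and 25.1% lower), and 5 and 3 from C1H to C1HDT (55.7%, 26.3% higher and 29.4% lower). The genes called were the same in each of these comparisons, except that Zic1 was also called lower from C1H to C1HV. C1T ended apart from the groups that had been induced: Zic2, Zic5, Pou3f1 and Pax6 were called lower than in C1T in all 4 of them. Of all tested genes 14.9% and 14.3% were called lower in the withdrawn groups C1MV and C1HV, and 16.5% and 16.1% in the groups C1MDT and C1HDT, and these comparisons share the C1T libraries.

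**Figure D1:**
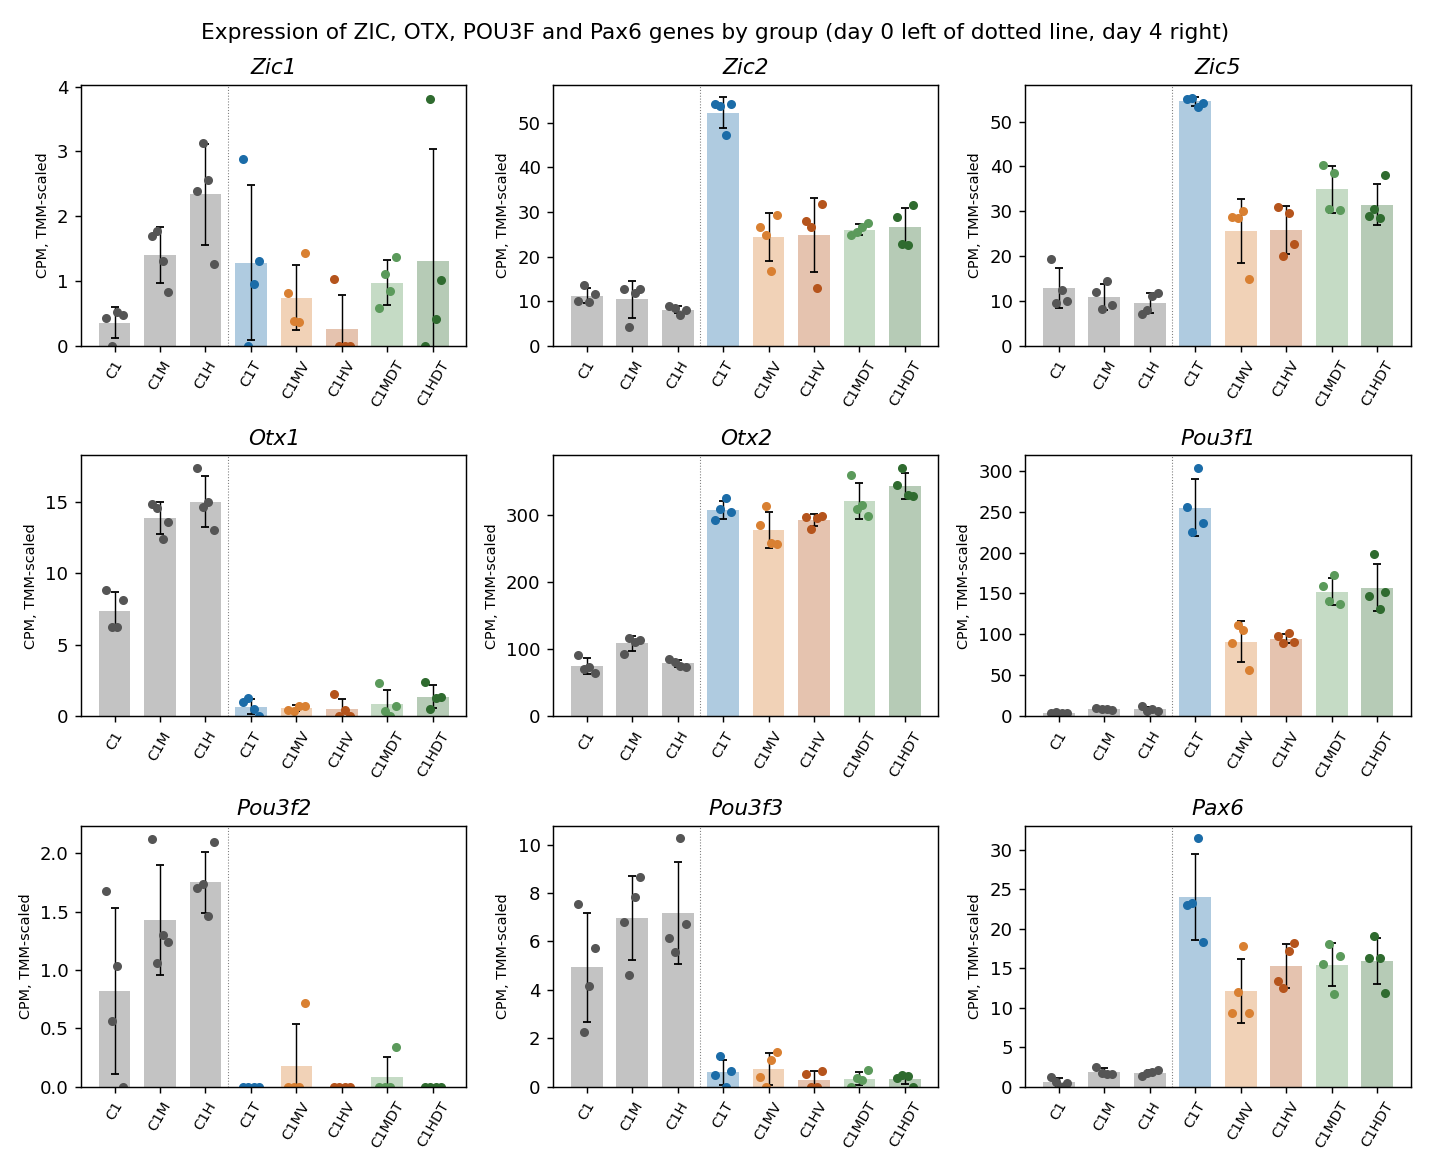
Level of each of the 9 genes in the 32 libraries, as TMM-scaled CPM on a linear axis from 0, with 1 panel for each gene, the 8 groups along the horizontal axis and a dotted line between day 0 and day 4. Points are libraries, bars group means and error bars the SD of 4 libraries, and Zic2, Zic5, Otx2, Pou3f1 and Pax6 have higher means in the 5 day 4 groups than in the 3 day 0 groups, while Otx1, Pou3f2 and Pou3f3 have lower ones.

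Ctnnb1, the gene of β-catenin, was at 5.19 to 11.0 CPM in the day 0 libraries of C1, 9.45 to 17.7 in C1M and 34.9 to 48.7 in C1H, so that C1 and C1M overlapped and C1H stood apart. At day 4 it was at 4.13 to 12.4 CPM in C1T and the withdrawn groups and at 25.4 to 36.3 CPM in the groups with inducers kept. Reads at the 3′ end do not separate the transgene from the remains of the endogenous locus. Markers of some other cell types moved with the groups as well. All 8 endoderm markers examined (among them Gata4, Gata6, Sox17 and Foxa2) were called higher than in C1T in each of the 4 induced groups (beside 15.4% and 13.7% of tested genes in C1MV and C1HV and 16.9% and 17.4% in C1MDT and C1HDT), with a summed level of 16.3 to 27.6 CPM in the C1T libraries against 405 to 915 CPM, and none of them was at 0. At day 0 the endoderm markers summed to 25.8 to 35.2 CPM in C1, 38.4 to 55.2 in C1M and 43.6 to 50.9 in C1H. The 10 naive pluripotency markers summed at day 0 to 5994 to 6229 CPM in C1, above 4586 to 4698 in C1M and 4618 to 4840 in C1H. At day 4 their sum was 530.3 to 695 CPM in C1T, 1002 to 1404 in the withdrawn groups and 389.8 to 566 in the groups with inducers kept. The neuron markers Tubb3, Map2, Elavl3, Dcx and Stmn2 summed to 117 to 151 CPM at day 0 and to 302 to 388 CPM in C1T. Their sum was 334 to 398 CPM in C1MV and 294 to 343 in C1HV, both overlapping C1T, against 244 to 269 in C1MDT and 253 to 289 in C1HDT, all below C1T. Of the 4 tested, 1 was called higher and 1 lower than in C1T in C1MV, and 1 and 2 in C1HV. The counts were 0 and 2 in C1MDT and 1 and 2 in C1HDT, so single markers went both ways. Of all tested genes 14.9% and 14.3% were called lower in C1MV and C1HV, and 16.5% and 16.1% in C1MDT and C1HDT. Dcx was at 0 in every library of the day 0 groups and of C1MV and C1MDT. Of 6 mesoderm markers 4 were tested, and 0 were called against C1T in any induced group. Of 4 trophoblast markers 3 were tested. Against C1T 1 was called higher in C1MV, 1 higher in C1HV, 1 lower in C1MDT and 0 in C1HDT. The part of all these markers in the results below was not tested.

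Of the OTX genes, Otx2 rose from day 0 to day 4 in every line of treatment and Otx1 fell. Otx2, whose product binds TAATCC and is needed for the forebrain, was at 91.4, 70.2, 72.6 and 65.1 CPM in C1 and at 293, 309, 326 and 305 CPM in C1T. The 2 groups were far apart, with no library between 91.4 and 293 CPM. The difference was 2.03 ± 0.09 (SE; adjusted p = 1.49e-47). The increase was 1.36 ± 0.08 (SE; adjusted p = 8.06e-33) from C1M to C1MV and 1.55 ± 0.08 (SE; adjusted p = 3.2e-39) from C1M to C1MDT. It was 1.89 ± 0.09 (SE; adjusted p = 1.44e-45) from C1H to C1HV and 2.12 ± 0.09 (SE; adjusted p = 1.85e-52) from C1H to C1HDT.

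Otx2 was not called different from C1T in any induced group at day 4. The libraries of C1MV were at 285, 314, 258 and 257 CPM, and those of C1MDT at 359.7, 309, 315 and 299 CPM. Those of C1HV were at 297, 279, 296 and 298 CPM, and those of C1HDT at 345, 371, 331 and 328 CPM. The 5 day 4 groups formed an unbroken order from C1HDT to C1MV in which each overlapped the next. Relative to C1T the log2 differences were -0.14 ± 0.08 (SE; adjusted p = 0.175) for C1MV, 0.05 ± 0.08 (SE; adjusted p = 0.648) for C1MDT, -0.07 ± 0.08 (SE; adjusted p = 0.544) for C1HV and 0.16 ± 0.08 (SE; adjusted p = 0.11) for C1HDT. All 4 C1HDT libraries lay above the highest of C1T (326 CPM), and with scaling by library size alone this difference was 0.18 with an adjusted p of 0.0499, while that of C1HV turned to 0.0025. Whether Otx2 differed from C1T less than the other genes did was not tested.

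At day 0 Otx2 was highest in the middle fraction. C1M libraries held 92.9, 117, 111 and 114 CPM and C1H libraries 85.5, 81.2, 74.4 and 73.5 CPM. Every C1M library was above every library of C1 and of C1H, while C1 and C1H overlapped. Otx2 rose in C1M by 0.53 ± 0.10 (SE; adjusted p = 2.48e-06) relative to C1. Relative to C1M it fell by 0.47 ± 0.09 (SE; adjusted p = 0.000456) in C1H, and it was the only one of the 9 genes called in that comparison, in which 1.06% of tested genes were called lower. Between C1H and C1 the difference was 0.07 ± 0.10 (SE; adjusted p = 0.672), which turned to -0.0029 without C1 replicate 4.

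Otx1, known for its role in cortex and sense organs, went the other way. Its libraries were at 8.81, 6.22, 6.23 and 8.14 CPM in C1, 14.8, 14.5, 12.4 and 13.6 in C1M and 17.4, 14.6, 15.0 and 13.0 in C1H. No library of C1 reached those of C1M or C1H, and Otx1 rose by 0.89 ± 0.29 (SE; adjusted p = 0.013) in C1M and by 1.01 ± 0.28 (SE; adjusted p = 0.00363) in C1H. At day 4 the 20 libraries held 0 to 2.38 CPM, all below the lowest of C1. Otx1 fell in all 5 comparisons with day 0, by log2 changes of -3.25 ± 0.52 in C1T, -4.55 ± 0.46 and -4.31 ± 0.43 in C1MV and C1MDT, and -4.70 ± 0.49 and -3.34 ± 0.37 in C1HV and C1HDT, the largest adjusted p being 2.22e-08. The counts behind the day 4 levels were 4 to 15 reads over a whole group, and no difference among day 4 groups was called.

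**Figure D2:**
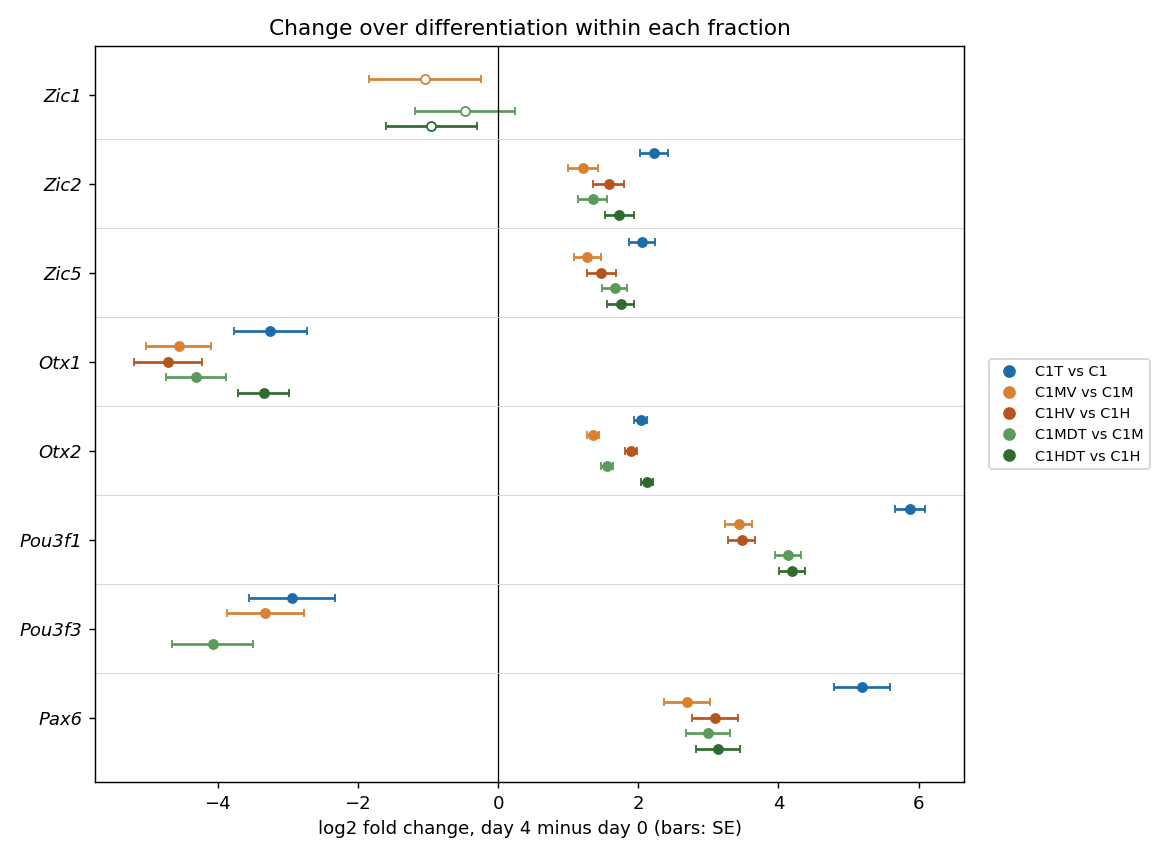
Change of 8 of the genes from day 0 to day 4, as log2 fold change with bars of 1 SE, for the comparisons C1T vs C1, C1MV vs C1M, C1HV vs C1H, C1MDT vs C1M and C1HDT vs C1H, with filled points for calls at an adjusted p under 0.05. Points with 3 or fewer summed counts in either group, among them all of Pou3f2, are left out, and the changes of Pou3f1 and Pax6 from C1 to C1T, at 5.88 and 5.19, lie farthest to the right.

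Pou3f1 had the largest log2 change of the 5 members called higher from C1 to C1T, and its day 4 level differed with the history of induction. This factor marks the epiblast that has left naive pluripotency and later the Schwann cell lineage. It was at 4.19, 4.53, 4.15 and 4.31 CPM in C1 and at 256, 225, 304 and 236 CPM in C1T. The increase was 5.88 ± 0.21 (SE; adjusted p = 1.4e-26) on the log2 scale. In the groups with inducers withdrawn it was at 89.9, 112, 106 and 56.3 CPM in C1MV and 98.1, 89.3, 101 and 91.0 CPM in C1HV. With inducers kept it was at 159, 140.4, 173 and 137 CPM in C1MDT and 147, 198, 131 and 152 CPM in C1HDT. The day 4 libraries thus fell into 3 sets that did not overlap, with C1T at the top (225 to 304 CPM), then C1HDT and C1MDT, then C1HV and C1MV. Each set lay above all 3 day 0 groups.

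Relative to C1T, Pou3f1 fell by 1.45 ± 0.13 (adjusted p = 7.58e-13) in C1MV and fell by 1.42 ± 0.13 (adjusted p = 2.87e-12) in C1HV. With inducers kept it fell by 0.74 ± 0.12 (adjusted p = 2.05e-06) in C1MDT and fell by 0.70 ± 0.12 (adjusted p = 5.11e-06) in C1HDT. Kept and withdrawn inducers were compared directly within each sorted fraction. Pou3f1 was higher with inducers kept by 0.70 ± 0.13 (SE; adjusted p = 7.19e-05) in the middle fraction, where it was the only one of the 9 genes called and 6.64% of tested genes were called higher. In the high fraction the difference was 0.72 ± 0.13 (SE; adjusted p = 6.31e-05), where 2 of the 9 genes and 9.06% of tested genes were called higher. C1MV replicate 4, the library with the fewest reads, was also the lowest of its group for Pou3f1. Without it the difference between C1MDT and C1MV was 0.58.

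The other gene called between C1HDT and C1HV was Otx2, by 0.23 ± 0.08 (SE; adjusted p = 0.0272). All C1HDT libraries were above all C1HV libraries, yet the call was lost without any one of 7 of the 8 libraries (adjusted p of 0.0478 to 0.161 over the 8 omissions, log2 differences of 0.18 to 0.24), and with library size alone as the scaling (adjusted p = 0.0957). Between C1MDT and C1MV the Otx2 difference was 0.20 ± 0.08 (SE; adjusted p = 0.0798). This one was called without C1MV replicate 2 (0.27, adjusted p = 0.0192) or without C1MDT replicate 4 (0.24, adjusted p = 0.0411). In both fractions the naive markers were lower with inducers kept, 9 of 10 in the middle and 10 of 10 in the high fraction, beside 5.98% and 6.89% of tested genes called lower.

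At day 0 Pou3f1 was at 10.2, 8.15, 8.80 and 7.43 CPM in C1M and 12.6, 6.62, 8.42 and 5.88 CPM in C1H, all above the C1 libraries. The difference from C1 was 1.00 ± 0.36 (SE; adjusted p = 0.0372) in C1M and 0.98 ± 0.36 (SE; adjusted p = 0.0417) in C1H. These calls were close to the threshold. That in C1M was lost without any one of the 8 libraries compared (adjusted p of 0.0526 to 0.11, log2 differences of 0.91 to 1.05), and that in C1H without any one of 6 of 8, with log2 differences of 0.69 to 1.08, the lowest without C1H replicate 1. The genes called at day 0 were Otx1, Otx2 and Pou3f1 in C1M and Zic1, Otx1 and Pou3f1 in C1H, 3 of 9 each, beside 14.3% and 13.8% of tested genes called higher.

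The 2 other POU3F genes, both better known from cortical progenitors, were low at day 0 and close to or at 0 afterwards. Pou3f3 was at 7.55, 2.26, 4.15 and 5.74 CPM in C1, 6.79, 4.61, 7.82 and 8.66 in C1M and 6.13, 5.58, 10.3 and 6.72 in C1H. At day 4 its 20 libraries held 0 to 1.43 CPM, all below the lowest of day 0. It changed by -2.94 ± 0.62 from C1 to C1T (adjusted p = 1.87e-05), by -3.32 ± 0.55 from C1M to C1MV (adjusted p = 8.76e-08), and by -4.07 ± 0.58 from C1M to C1MDT (adjusted p = 5.65e-10). C1HV and C1HDT held 2 and 3 reads of Pou3f3 in all, against 78 in C1H. The ratio of these sums, scaled to depth, was 0.0370 (95% interval 0.00441 to 0.138) for C1HV over C1H and 0.0405 (95% interval 0.00818 to 0.123) for C1HDT over C1H, where the intervals cover counting error only. Both differences were called (adjusted p = 5.13e-09 and 1.58e-10).

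Pou3f2 gave few reads, and all of its calls rest on 19 reads or fewer in a group. Its libraries were at 1.68, 0.566, 1.04 and 0 CPM in C1, 2.12, 1.06, 1.30 and 1.24 in C1M and 1.70, 1.74, 1.47 and 2.10 in C1H. It was at 0 in all 12 libraries of C1T, C1HV and C1HDT, and C1MV and C1MDT held 1 read each, both in replicate 4. With 3 counts over a group as the limit that a count of 0 allows, and the reads of the day 0 group taken as they are, Pou3f2 was by summed counts at least 4.39-fold lower in C1HV than in C1H (adjusted p = 0.00105) and at least 6.01-fold lower in C1HDT (adjusted p = 0.000182). In C1T it was at least 2.32-fold lower than in C1, with 7 reads in C1 (adjusted p = 0.019, and 0.0895 without C1 replicate 1, which held 4 of the 7). With counting error in both groups the 95% intervals of these 3 ratios start lower, at 3.23, 4.43 and 1.43. The 15 reads of C1M against 1 gave a ratio of 13.1 (95% interval 2.01 to 551) over C1MV and 15.4 (95% interval 2.37 to 647) over C1MDT. Among day 4 groups no fold was formed, since all were at or under 3 reads.

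The ZIC genes of the epiblast rose over the 4 days. Zic2, whose loss is a known cause of holoprosencephaly, was at 10.1, 13.6, 9.86 and 11.5 CPM in C1 and 54.2, 53.7, 47.2 and 54.2 CPM in C1T. Zic5 was at 19.3, 9.62, 12.5 and 10.1 CPM in C1 and 55.2, 55.3, 53.4 and 54.2 CPM in C1T. For each gene the C1T libraries stood above all other 28. The increase was 2.22 ± 0.20 (SE; adjusted p = 5.19e-20) for Zic2 and 2.05 ± 0.18 (SE; adjusted p = 3.79e-20) for Zic5. In the induced lines the increase of Zic2 was 1.21 ± 0.21 and 1.35 ± 0.20 from C1M to C1MV and C1MDT, and 1.58 ± 0.22 and 1.73 ± 0.21 from C1H to C1HV and C1HDT. That of Zic5 was 1.27 ± 0.19 and 1.66 ± 0.18 from C1M to C1MV and C1MDT, and 1.48 ± 0.21 and 1.75 ± 0.19 from C1H to C1HV and C1HDT, and both genes were called in all 4 comparisons.

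Day 4 levels of Zic2 were 26.6, 24.7, 16.7 and 29.2 CPM in C1MV and 24.8, 25.4, 26.5 and 27.5 CPM in C1MDT, and 27.9, 26.7, 12.9 and 31.9 CPM in C1HV and 28.9, 22.9, 22.6 and 31.6 CPM in C1HDT. The highest of these 16 libraries, at 31.9 CPM, lay below the lowest of C1T, at 47.2 CPM. Relative to C1T the log2 changes of Zic2 were -1.13 ± 0.17 for C1MV, -0.996 ± 0.16 for C1MDT, -1.11 ± 0.17 for C1HV and -0.96 ± 0.16 for C1HDT, all called, with adjusted p-values of 1.07e-08, 1.5e-07, 5.8e-08 and 3.62e-07. The 4 induced groups overlapped one another, and Zic2 was not called between kept and withdrawn inducers.

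Zic5 was at 28.6, 28.5, 30.2 and 15.0 CPM in C1MV and 40.4, 30.6, 38.5 and 30.3 CPM in C1MDT, and at 30.98, 19.9, 29.7 and 22.8 CPM in C1HV and 28.9, 30.5, 28.5 and 38.1 CPM in C1HDT. Relative to C1T it fell by 1.04 ± 0.16 in C1MV (adjusted p = 1.99e-08) and fell by 1.06 ± 0.17 in C1HV (adjusted p = 3.62e-08). With inducers kept it fell by 0.65 ± 0.15 in C1MDT (adjusted p = 0.000208) and fell by 0.78 ± 0.15 in C1HDT (adjusted p = 8.66e-06). Every C1MDT library was above every C1MV library, but the difference was 0.39 ± 0.16 (SE; adjusted p = 0.107) and was not called, and between C1HDT and C1HV it was 0.27 ± 0.17 (SE; adjusted p = 0.312). At day 0 neither gene was called. Zic2 averaged 10.4 ± 4.11 CPM in C1M and 8.04 ± 0.804 in C1H, and Zic5 10.9 ± 2.81 and 9.48 ± 2.24, with differences from C1 of -0.12 ± 0.24 (SE; adjusted p = 0.76) and -0.47 ± 0.25 (SE; adjusted p = 0.171) for Zic2 and -0.26 ± 0.23 (SE; adjusted p = 0.421) and -0.49 ± 0.23 (SE; adjusted p = 0.113) for Zic5. In C1M both turned positive without a single library, Zic2 to 0.12 without C1M replicate 2 and Zic5 to 0.0023 without C1 replicate 1.

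**Figure D3:**
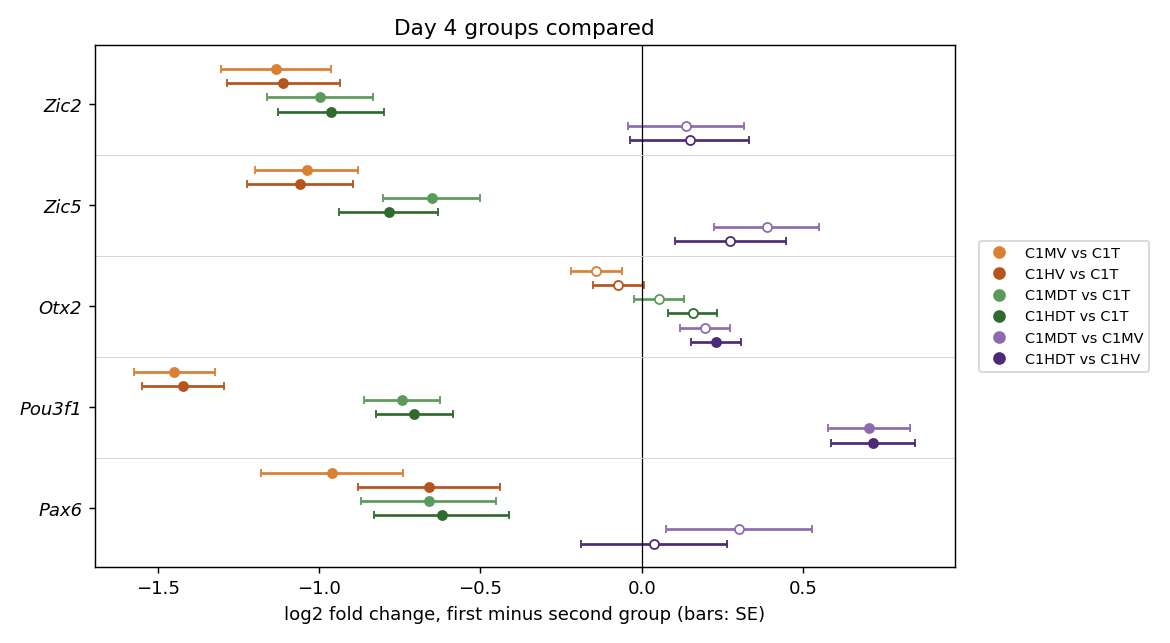
Day 4 comparisons of Zic2, Zic5, Otx2, Pou3f1 and Pax6, as log2 fold change with bars of 1 SE, for each induced group against C1T and for inducers kept against withdrawn in each fraction, with filled points for calls at an adjusted p under 0.05. Zic2, Zic5, Pou3f1 and Pax6 lie below 0 in all 4 comparisons with C1T while Otx2 stays between -0.14 and 0.16, and with inducers kept Pou3f1 lies above 0 by 0.70 and 0.72.

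Zic1, a dorsal neural tube gene, stayed at the edge of detection, with 2 to 26 reads in a group. Its libraries were at 0.419, 0, 0.519 and 0.479 CPM in C1, 1.70, 1.77, 1.30 and 0.825 in C1M and 2.38, 3.14, 2.56 and 1.26 in C1H. All C1H libraries were above all C1 libraries. C1H held 26 reads and C1 3, a ratio of 6.48 (95% interval 1.99 to 33.5) after scaling to depth, and the difference was called (adjusted p = 0.0167, 0.0561 without C1 replicate 2). C1M held 15 reads, a ratio to C1 of 3.83 (95% interval 1.08 to 20.6) that was not called (adjusted p = 0.14). From C1H to C1HV, with 2 reads, the ratio of C1H over C1HV was 9.00 (95% interval 2.25 to 78.3) and the decrease was called (adjusted p = 0.00507). C1HDT libraries were scattered at 0, 3.82, 0.419 and 1.02 CPM, and the difference from C1H was -0.95 ± 0.65 (SE; adjusted p = 0.208), or -2.17 (adjusted p = 0.0173) without C1HDT replicate 2. From C1 to C1T, with 3 and 10 reads, the ratio was 3.35 (95% interval 0.863 to 19.0) and was not called.

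Pax6, the homeodomain factor of eye, forebrain and neural progenitors, rose from nearly 0 CPM. It was at 1.26, 0.566, 0 and 0.479 CPM in C1, 5 reads in all, and at 23.0, 23.3, 31.4 and 18.3 CPM in C1T. The increase was 5.19 ± 0.40 (SE; adjusted p = 6.55e-25), and in the induced lines it was 2.69 ± 0.33 and 2.99 ± 0.31 from C1M to C1MV and C1MDT, and 3.10 ± 0.33 and 3.14 ± 0.32 from C1H to C1HV and C1HDT. At day 4 Pax6 was at 9.27, 12.0, 17.8 and 9.27 CPM in C1MV and 15.6, 18.1, 11.7 and 16.5 CPM in C1MDT, and at 13.4, 12.5, 17.2 and 18.2 CPM in C1HV and 16.3, 19.1, 16.3 and 11.9 CPM in C1HDT. These values lay below those of C1T, apart from the overlap of C1HDT with C1T replicate 4. Relative to C1T Pax6 fell by 0.96 ± 0.22 (adjusted p = 0.00018) in C1MV, a call that held without any one library. In C1MDT it fell by 0.66 ± 0.21 (adjusted p = 0.0079), in C1HV it fell by 0.66 ± 0.22 (adjusted p = 0.0148) and in C1HDT it fell by 0.62 ± 0.21 (adjusted p = 0.0131). Each of these 3 calls was lost without C1T replicate 3, the highest library, with adjusted p-values of 0.0864, 0.123 and 0.107. They were also lost without C1MDT replicate 3 (0.0778), without C1HV replicate 1 (0.0638) or 2 (0.0664), and without C1HDT replicate 4 (0.0902).

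At day 0 all libraries of C1M (2.55, 1.77, 1.63 and 1.65 CPM) and of C1H (1.36, 1.74, 1.83 and 2.10 CPM) held more Pax6 than any library of C1. With 20 and 19 reads against 5, the differences of 1.54 ± 0.65 (SE; adjusted p = 0.0661) and 1.43 ± 0.66 (SE; adjusted p = 0.096) were not called, and without C1 replicate 1 that of C1M was 2.25 and called (adjusted p = 0.037).

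The sorted fraction left no called difference in these genes at day 4. Of the 9 genes 0 were called between C1HV and C1MV, between C1HDT and C1MDT, or for the effect of keeping the inducers in one fraction against the other, and 0 had an unadjusted p under 0.05 in any of the 3, by edgeR. DESeq2 also called 0. The smallest adjusted p among them was 0.836, 0.942 and 0.845. By edgeR the share of all tested genes called was 0.00654%, 0% and 0% in these comparisons, with 1150, 814 and 1285 genes at an unadjusted p under 0.05. DESeq2 called 1, 0 and 20 genes. The log2 difference between C1HDT and C1MDT, for example, was 0.04 ± 0.12 for Pou3f1 and 0.10 ± 0.08 for Otx2. These errors leave room for small differences of either sign. In the induced day 4 groups Zic1, Otx1, Pou3f2 and Pou3f3 held 0 to 15 reads each, too few to test for small differences. Pou3f2, with 0 or 1 read in a group, could not have been called. Mean Ctnnb1 was 30.8 CPM in C1HDT against 29.2 in C1MDT, and 6.21 in C1HV against 9.16 in C1MV. In both pairs the libraries overlapped. These comparisons thus do not test different levels of Ctnnb1 at day 4.

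The change from day 0 to day 4 was next set against that of the uninduced line, as an interaction in the same fit. In the C1M to C1MV line 5 of the 9 genes rose by less than from C1 to C1T (Zic2, Zic5, Otx2, Pou3f1 and Pax6), beside 11.6% of tested genes with a lower change. In the C1M to C1MDT line these were 4 (Zic2, Otx2, Pou3f1 and Pax6, 12.6%), in the C1H to C1HDT line 2 (Pou3f1 and Pax6, 12.6%), and from C1H to C1HV Pou3f1, Pax6 and Zic1 were called (11.2%). All 4 tests share the C1 and C1T libraries.

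For Pou3f1 the difference was -2.45 ± 0.38 (SE; adjusted p = 2.38e-06) in the C1MV line and -1.74 ± 0.38 (SE; adjusted p = 0.000457) in the C1MDT line. It was -2.40 ± 0.38 (SE; adjusted p = 3.83e-06) in the C1HV line and -1.68 ± 0.38 (SE; adjusted p = 0.000647) in the C1HDT line. Part of each value lies at day 0, where Pou3f1 averaged 4.29 CPM in C1 against 8.64 in C1M and 8.38 in C1H, and part at day 4, where the induced groups were below C1T. For Pax6 the values were -2.50 ± 0.68 (SE; adjusted p = 0.00282) for C1MV, -2.20 ± 0.68 (SE; adjusted p = 0.00918) for C1MDT, -2.09 ± 0.69 (SE; adjusted p = 0.0173) for C1HV and -2.06 ± 0.68 (SE; adjusted p = 0.0166) for C1HDT. These rest on the 5 reads of C1, and without C1 replicate 3, which held none, the calls in C1HV and C1HDT were lost (-1.70, adjusted p = 0.0684, and -1.67, adjusted p = 0.066).

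Otx2 gained less in the middle fraction, by -0.67 ± 0.12 (SE; adjusted p = 4.63e-06) in C1MV and -0.48 ± 0.12 (SE; adjusted p = 0.00139) in C1MDT. Its day 4 levels there were not called different from C1T, and its day 0 level was 109 CPM in C1M against 74.8 in C1. In the high fraction, where day 0 levels were 78.6 CPM, the values were -0.14 ± 0.13 (SE; adjusted p = 0.484) for C1HV and 0.09 ± 0.13 (SE; adjusted p = 0.648) for C1HDT. For Zic2 they were -1.01 ± 0.30 (SE; adjusted p = 0.0067) in C1MV and -0.87 ± 0.29 (SE; adjusted p = 0.0188) in C1MDT, the latter lost without any one of 5 libraries of C1 and C1M (adjusted p of up to 0.0763). Its values were -0.64 ± 0.31 (SE; adjusted p = 0.133) in C1HV and -0.49 ± 0.30 (SE; adjusted p = 0.245) in C1HDT, neither called. Zic5 gave -0.77 ± 0.28 (SE; adjusted p = 0.0307) in C1MV, a call lost without any one of 7 of 16 libraries (adjusted p of up to 0.182), and was not called in the 3 other lines. Its value in the C1HV line, -0.57 ± 0.29 (SE; adjusted p = 0.149), was called without C1 replicate 1 (-0.82, adjusted p = 0.0427). The call of Zic1 in the C1HV line (adjusted p = 0.00744) rests on groups of 3 and 2 reads and was lost without C1T replicate 1 (adjusted p = 0.0834).

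**Figure D4:**
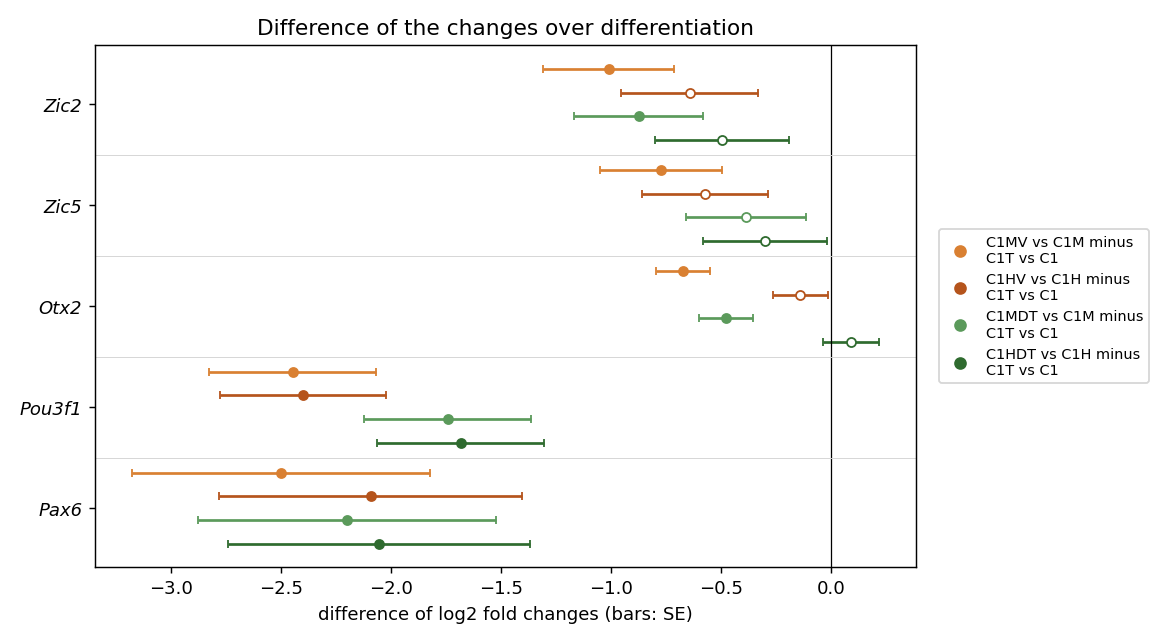
Change from day 0 to day 4 in each induced line minus the change from C1 to C1T, as a difference of log2 fold changes with bars of 1 SE, for Zic2, Zic5, Otx2, Pou3f1 and Pax6, with filled points for calls at an adjusted p under 0.05. All points of Pou3f1 and Pax6 lie left of 0 and are filled, whereas the points of Otx2 from the high fraction are open and lie at -0.14 and 0.09.

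Across the 32 libraries the 5 genes that rose went together and against those that fell. Both sets were defined by their direction from day 0 to day 4 in these same libraries. The signs of r over all libraries follow from that choice and are no separate result. Pearson's r of log2 CPM was 0.97 between Pou3f1 and Pax6, 0.97 between Otx2 and Pou3f1, 0.91 between Zic5 and Pou3f1 and 0.87 between Zic2 and Zic5, while between Otx1 and Otx2 it was -0.89. Within the days this last sign turned, with r at 0.49 over the 12 day 0 libraries and 0.35 over the 20 of day 4, and for Otx1 with Pou3f1 r was -0.88 over all libraries and 0.88 at day 0. These points share the 8 group means. Over the 20 day 4 libraries alone r stayed at 0.91 for Zic5 with Pou3f1 and 0.74 for Pou3f1 with Pax6, against 0.07 for Zic2 with Otx2. Once group means were removed, r was -0.11 between Zic2 and Zic5 and 0.28 between Zic5 and Pou3f1, so replicates of 1 group showed little of this.

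The protein-coding genes whose log2 CPM followed a gene most closely over the 32 libraries, among 10826 at a mean log2 CPM of 2 or more, were for Otx2 Hmgn1 (r = 0.985), Slc7a7 (r = 0.984) and Pcbp4 (r = 0.981). For Pou3f1 they were Apela (r = 0.990), Snrpn (r = 0.986) and Marcks (r = 0.983), of which Apela, the gene of a peptide hormone of early embryos, was also among the closest 3 once the mean of each day was subtracted. For Pax6 they were Pou3f1 (r = 0.974), Apela (r = 0.974) and Sox12 (r = 0.970). For Zic2 they were Isyna1 (r = 0.931), Car2 (r = 0.926) and Srm (r = 0.925), and for Zic5 Srm (r = 0.948), Eif4g2 (r = 0.946) and Gclm (r = 0.943). For Otx1 they were Gpx1 (r = 0.947), Spint1 (r = 0.945) and Piga (r = 0.945), and for Pou3f3 Rfx2 (r = 0.950) and Smtnl2 (r = 0.941). Values for Pou3f2, Usp37 (r = 0.925), Lactb2 (r = 0.903) and Atp2b4 (r = 0.902), and Zic1, Tmed2 (r = 0.650), Plpbp (r = 0.637) and 2900026A02Rik (r = 0.630), come from few reads. With day means subtracted Tmed2 still came first for Zic1 (r = 0.627), with Plpbp also among its closest 3, and for the 7 other genes none of those printed here was among the closest 3.

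Other genes of the same programmes were counted from 2 lists of gene names. Of 12 genes of the formative and early post-implantation epiblast, all tested, 11 rose and 1 fell from C1 to C1T, beside the 24.4% and 24.9% over all tested genes given above, with a median log2 change of 3.39 against 0.0088 over all tested genes. Lef1, a TCF/LEF factor that partners β-catenin, rose the most, by 6.75 ± 0.19 (SE; adjusted p = 1.62e-65), and Foxd3 was the one that fell, with a log2 change of -0.89 ± 0.19 (SE; adjusted p = 1.69e-05). In C1HDT relative to C1T 0 rose and 8 fell (median -0.94, against -0.0042 over all tested genes, of which 17.4% rose and 16.1% fell), with Tcf15, a basic helix-loop-helix factor, at -2.65 ± 0.11 (SE; adjusted p = 8.54e-37). With inducers kept in the high fraction 5 rose and 0 fell relative to C1HV (median 0.49, against 0, with 9.06% of tested genes higher and 6.89% lower), with Dnmt3b, a de novo DNA methyltransferase, at 0.96 ± 0.09 (SE; adjusted p = 3.7e-15). The summed level of these 12 genes was 2393 to 2704 CPM in C1T libraries, 1209 to 1364 with inducers kept and 737 to 921 with inducers withdrawn, 3 ranges that did not overlap, as for Pou3f1. At day 0 the mean of the sum was highest in C1, where that of Pou3f1 was lowest.

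Of 20 neural plate and neural progenitor genes 16 could be tested, and from C1 to C1T 5 rose and 1 fell (median 0.13). The share that rose, 5 of 16, lies near the 24.4% of all tested genes. Sox11 rose the most, by 4.59 ± 0.13 (SE; adjusted p = 1.92e-70), and Six3 fell, at -1.77 ± 0.51 (SE; adjusted p = 0.00199). Relative to C1T 1 rose and 5 fell in C1MV (median -0.26, with 15.4% of tested genes higher and 14.9% lower). In C1HV 3 rose and 2 fell (median -0.14, with 13.7% higher and 14.3% lower). With inducers kept 5 rose and 3 fell both in C1MDT (median 0.19, with 16.9% higher and 16.5% lower) and in C1HDT (median 0.04, with the shares given for the epiblast list). Those that rose in C1HDT were Sox1, Sox11, Nes, Msi1 and Hes5 and those that fell were Gbx2, Irx3 and Meis2, of which all but Hes5 and Gbx2 are named after their values were seen. Meis2 was at -0.80 ± 0.09 (SE; adjusted p = 8.86e-14) and Irx3 at -0.62 ± 0.13 (SE; adjusted p = 1.92e-05), the direction of Pax6. Sox1, the earliest marker of neural ectoderm, averaged 92.3 CPM in C1T and 142.5 in C1HDT, a difference of 0.62 ± 0.10 (SE; adjusted p = 4.94e-08). The largest rise was that of the Notch target Hes5, with 19 reads against 1, a ratio of 14.9 (95% interval 2.37 to 618), and the largest decrease that of Gbx2 at -1.28 ± 0.24 (SE; adjusted p = 3.1e-06). Between C1HDT and C1HV 3 rose and 1 fell (median 0.49), beside the shares of all tested genes given above, with Nes, the intermediate filament of progenitors, at 0.79 ± 0.23 (SE; adjusted p = 0.00922) and Six3 at -1.29 ± 0.45 (SE; adjusted p = 0.0364). The same libraries of C1HDT carried the endoderm markers given above, whose part was not tested.

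Among related genes, Pou3f4, a POU3F gene of the developing brain and inner ear, was at 2.04, 1.74, 2.56 and 1.68 CPM in C1H and 0.340, 0.477, 0.837 and 0 CPM in C1HDT, and the groups did not overlap. The decrease was called, with a difference of -2.23 ± 0.77 (SE; adjusted p = 0.00982), and rests on 22 and 4 reads. From C1H to C1HV, at 0.237 ± 0.275 CPM in C1HV, Pou3f4 was also called lower. In the middle fraction it was not called, at 1.54 ± 0.652 CPM in C1M, 0.678 ± 0.689 in C1MV and 0.950 ± 0.612 in C1MDT. From C1 to C1T, at 0.994 ± 0.584 and 1.59 ± 0.532 CPM, Pou3f4 was not called, with a difference of 0.67 ± 0.75 (SE; adjusted p = 0.479). These comparisons of Pou3f4 were chosen after its values were seen. Zic4, which overlaps Zic1, had 0 to 9 reads in a group and Crx, another gene of the OTX family, 0 to 2.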

How the data were processed

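The authors deposited 1 table of whole-number counts of uniquely aligned reads per Ensembl gene for each of the 32 libraries. According to the paper's methods, bbduk trimmed the QuantSeq 3′ reads, STAR aligned them to mm10 and htseq-count assigned them to genes, and its strand setting was not given in the sources used here. Rows that name no gene (reads without a feature, ambiguous or not unique) stayed out of library sizes. Genes with CPM of at least 1 in at least 4 libraries (15280 of 31053) were tested with edgeR 4.0.16 in R 4.3.3 (TMM, robust quasi-likelihood fit, all 8 groups in 1 model, Benjamini-Hochberg adjustment). The tests were 16 comparisons of groups and 5 interactions. DESeq2 1.42.0, other scalings and filters, a replicate block and each library left out in turn were alternatives. Log2 CPM used a prior count of 2. Steps were tested on simulated data. Members, lists and the genes to be named (the members, the 3 genes most like each, and the largest changes in each list) were chosen with earlier results of these data known. Values of some genes are not reported here. Libraries that share a replicate number did not deviate together (mean r -0.00163 against 0.000545 for the others), so they were not paired.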

Additional observations from a re-analysis of the deposited data

Results flagged for a closer look

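In 8 of the 69 pairs of a gene and a group that had a spread, 1 library stood apart from the other 3 by more than Dixon's 95% critical value for 4 samples, where chance flags about 1 in 20. C1M replicate 2 was low for Zic2 (4.25 CPM), C1T replicate 3 low for Zic2 (47.2 CPM), C1MV replicate 4 low for Zic5 (15.0 CPM) and C1HV replicate 2 low for Otx2 (279 CPM). C1M replicate 1 was high for Pax6 (2.55 CPM), with 6 reads against 5, 5 and 4 in the other libraries of its group. C1HV replicate 1 was the only library of its group with reads of Zic1 (1.03 CPM), and replicate 4 the only one with reads of Pou3f2 in C1MV (0.713 CPM) and C1MDT (0.344 CPM), which are 1 or 2 reads each. In these 3 pairs the ratio is at its maximum by construction, so the rate of 1 in 20 does not apply to them. For reads as few as those of Pax6 in C1M the rate is uncertain as well. C1MV replicate 4 was also the library with the fewest reads of all 32.

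The change from day 0 to day 4 differed from that of the uninduced line, by the test of that difference, in 14 cases. In the C1M to C1MV line the differences were -1.01 for Zic2, -0.77 for Zic5, -0.67 for Otx2, -2.45 for Pou3f1 and -2.50 for Pax6. In the C1M to C1MDT line they were -0.87 for Zic2, -0.48 for Otx2, -1.74 for Pou3f1 and -2.20 for Pax6. In the C1H to C1HV line they were -4.56 for Zic1, -2.40 for Pou3f1 and -2.09 for Pax6, and in the C1H to C1HDT line -1.68 for Pou3f1 and -2.06 for Pax6. The value for Zic1 depends on groups of 3 and 2 reads and on the prior count, and is no measure of size.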

How the results depend on the processing

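DESeq2 called the same number of the 9 genes in every comparison, and a block by replicate number changed no call on them (7451 genes in all with the block and 7524 without it from C1 to C1T, 8 of the 9 in both). Under a filter of 1 CPM in every library only Zic2, Zic5, Otx2 and Pou3f1 among 10233 genes could be tested, so the counts fell to 1 from C1 to C1H, to 4 in each of the comparisons C1T vs C1, C1MV vs C1M, C1MDT vs C1M, C1HV vs C1H and C1HDT vs C1H, and to 1 in the interactions of the C1HV and the C1HDT line. Between C1HDT and C1HV the count was 1 in place of 2 with RLE size factors, with library size only and without a filter, where Otx2 was not called (adjusted p = 0.0537, 0.0957 and 0.0517). With library size only Otx2 in C1HV vs C1T turned to 0.0025, and the mean of Zic5 in C1T was 52.6 CPM in place of 54.5. The cause of these moves was not tested. Without single libraries the counts ran from 1 to 3 in C1H vs C1, from 1 to 2 in C1MDT vs C1MV and in C1HDT vs C1HV, and from 1 to 3 in the interaction of the C1HDT line. With 1 library left out, Zic2 ran from -0.24 to 0.12 and Zic5 from -0.46 to 0.0023 in C1M vs C1, and Otx2 from -0.0029 to 0.16 in C1H vs C1, none of them called. Of the changes of single genes 713 kept direction and call under the other settings, 3 lost and 1 gained a call, and with 1 library left out 987 kept both, 45 lost and 5 gained a call. Library size only moved the share of called genes that were higher from 54.4% to 64.5% in C1M vs C1, from 53.4% to 66.4% in C1H vs C1, from 49.1% to 59.4% in C1HV vs C1T and from 56.8% to 45.2% in C1HDT vs C1HV. Depth limits Zic1, Pou3f2, the day 4 levels of Otx1 and Pou3f3 and the day 0 level of Pax6, which rest on 0 to 26 reads in a group.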
